A study of Mus musculus with 2 samples.

Results

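The 9 genes described here encode inhibitors of the cyclin-dependent kinases and the arm of the cell cycle control that runs through p53 and the retinoblastoma protein: Cdkn2a, Cdkn2b, Cdkn2c, Cdkn2d, Cdkn1a, Cdkn1b, Trp53, Mdm2 and Rb1. They were taken by gene symbol from a table of 34295 genes, and all 9 were found, each on 1 row. The table compares 1 library of mouse embryonic fibroblasts with 1 library of bone marrow derived macrophages, both wild type C57BL/6J cells. The fibroblasts were grown out of midgestation embryos (E13.5 to E14.4) without heads and red tissue, cleared by sorting of cells carrying CD45, CD11b or F4/80, and kept in complete DMEM with 10% serum until passage 4 to 7, when 100000 cells were used. The macrophages were grown from whole bone marrow for 6 days in a medium with 10% serum and 30% conditioned medium of L929 cells, and 750000 cells were plated. Both cultures were collected after a further night. Neither the exact passage of the sequenced fibroblasts nor the number of animals is given in the labels, and with 1 library per cell type there is no error or test for any value below. Cell type, medium, passage and cell number cannot be told apart in this design.

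The cell cycle leaves G1 when cyclin D with CDK4 or CDK6, and then cyclin E with CDK2, phosphorylate the retinoblastoma protein RB1 and free the E2F transcription factors. The INK4 proteins (p16Ink4a, p15, p18 and p19Ink4d, from Cdkn2a, Cdkn2b, Cdkn2c and Cdkn2d) bind CDK4 and CDK6, while the CIP/KIP proteins (p21 and p27, from Cdkn1a and Cdkn1b) bind complexes of cyclins with their kinases, CDK2 above all. Cdkn2a also encodes p19Arf in another reading frame, and p19Arf holds back MDM2, the ubiquitin ligase that marks p53 for breakdown, while p53 in turn switches on Cdkn1a and Mdm2. In mouse embryonic fibroblasts, p16Ink4a and p19Arf are known to build up with passage in culture.

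Values are transcripts per 1000000 (TPM), a level per transcript length that can be compared between genes. The word higher is used of a gene whose TPM plus 1 differed at least 4-fold between the libraries and whose larger value was at least 5 TPM, here called the size rule. Of the 9 genes, 2 were higher in the fibroblast library, Cdkn2a and Cdkn2b, against 14.3% of the 11191 genes that reached 5 TPM in either library. None of the 9 was higher in the macrophage library, where the share over all genes was 8.77%, and 23.1% of all genes were called in either direction. The other 7 lay within 2-fold, with log2 ratios of fibroblast over macrophage between -0.92 and 0.55, as did 61.3% of all genes. The median log2 ratio was 0.33 over the 9 genes and 0.26 over all 11191. All 9 reached 5 TPM in at least 1 library and 7 did so in both.

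**Figure D1:**
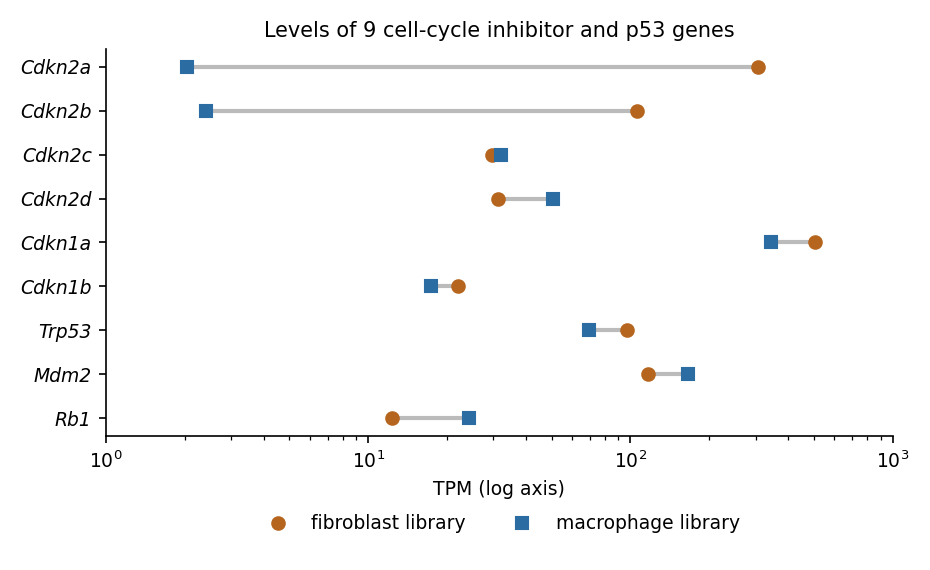
TPM of the 9 genes on a log axis, 1 point per library, with circles for fibroblasts and squares for macrophages and a grey line joining the values of a gene. Cdkn2a and Cdkn2b span from about the lowest values of the plot to 305 and 106 TPM, and the points of the other 7 genes lie within 2-fold of each other.

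Cdkn2a stood at 305 TPM in the fibroblasts against 2.03 in the macrophages. This is a ratio of 150.2 in TPM and a log2 ratio of 6.66 on the scale of TPM plus 1. By level it ranked 518 among all fibroblast genes and 10590 among those of the macrophages. Of the 11191 genes, 124 (1.11%) had a log2 ratio at least as large. Cdkn2b, whose product p15 is known as a target of TGF-beta signalling, had 106 and 2.40 TPM, a ratio of 44.1 and a log2 ratio of 4.97. A log2 ratio of this size or larger was found for 361 genes (3.23%). Both genes were thus abundant in one culture and near the lower end of detected genes in the other. Within the fibroblast library Cdkn2a was 2.88 times Cdkn2b, whereas in the macrophage library it was 0.846 times.

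The low macrophage values of both genes were set beside the level at which fibroblast genes as a class appeared in that library. All 18 genes listed as fibroblast markers were higher there than in macrophages, summing to 16594 TPM against 34.0, and Twist2 was listed at 0 in macrophages. The 14 of these markers at 100 TPM or more in fibroblasts appeared in the macrophage library at 0.0738% to 0.523% of their fibroblast level, with a median of 0.177%. Cdkn2a appeared there at 0.666% and Cdkn2b at 2.27%, and none of the 14 markers had a higher share than either. Of the 4 markers under 100 TPM, Fap, named after its values were seen, had a share of 1.80% (6.55 and 0.118 TPM), above that of Cdkn2a and below that of Cdkn2b. Subtracting the median marker share left log2 ratios of 6.94 for Cdkn2a and 5.05 for Cdkn2b. Such bulk values cannot tell a few cells with much of a transcript from many cells with little.

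The pair shares a locus. On GRCm38 (GENCODE M21), Cdkn2a (ENSMUSG00000044303) is found at 89274471 to 89294653 on chromosome 4 (minus strand) and Cdkn2b (ENSMUSG00000073802) upstream of it at 89306299 to 89311039, with 11645 bases between them. Cdkn2a has 2 annotated coding transcripts that start 12461 bases apart. The one with the upstream start codes for p19Arf and the other for p16Ink4a, with a first exon of 320 and 207 bases of their own. They share 575 bases, including the whole of exon 2, which is read in different frames. The deposited value is 1 number per gene, so the 305 TPM cannot be divided between p16Ink4a and p19Arf. Of 3 listed neighbouring genes on chromosome 4, Mtap alone reached 5 TPM in either library. The size rule could therefore not call Dmrta1 or Elavl2. Mtap did not pass the rule, and its difference ran toward fibroblasts, as for Cdkn2a and Cdkn2b. Mtap, which encodes an enzyme of methionine salvage, stood at 87.4 TPM in fibroblasts against 26.2 in macrophages, a log2 ratio of 1.70, Dmrta1 at 0.0471 and 0.0478 TPM, and Elavl2 at 1.10 TPM and listed at 0. Their positions are 89137122 to 89181081 for Mtap, 89679436 to 89694772 for Dmrta1 and 91250763 to 91400785 for Elavl2. All lie farther from the pair than Cdkn2a and Cdkn2b lie from each other.

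**Figure D2:**
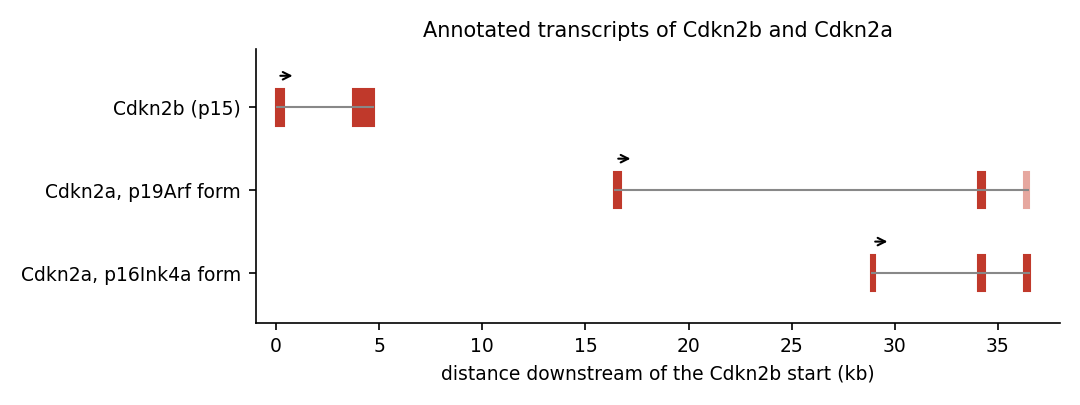
Exons (boxes) of the Cdkn2b transcript and both Cdkn2a transcripts, drawn to scale as distance in kb downstream of the Cdkn2b start, with arrows for the direction of transcription, dark boxes for exons that hold coding sequence and the pale box for an exon without any. The p19Arf form starts 16386 bases and the p16Ink4a form a further 12461 bases downstream of Cdkn2b, and both end in the same region.

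The stretches before the 3 start sites are shown because they belong to the 2 genes that differed between the cultures. They come from RefSeq (GRCm38.p6) and run 5′ to 3′ on the minus strand. Each ends at its own start site, as placed by RefSeq or GENCODE, whichever lies more upstream. No GENCODE exon of Cdkn2a or Cdkn2b lies in them, and exons of other genes were not looked for. The p16Ink4a window is part of the first intron of the p19Arf form. Capitals mark matches, on either strand, to the motifs searched. These were the E2F motif in the forms TTTCGCGC and TTTGGCGC, the GC box GGGCGG that SP1 family factors are known to bind, and the TATA box TATAAA that sets the start of many regulated genes. Other forms of the E2F motif were not searched, so lower case does not show that a window lacks an E2F site. Further motifs were the cAMP element TGACGTCA bound by CREB, the AP-1 motif TGANTCA bound by pairs of FOS and JUN proteins, the E-box CACGTG bound by MYC and its relatives, and the CCAAT box bound by NF-Y. The last was a pair of p53 decamers, described further on. No marked matches overlap. The 3 windows are chr4:89294654-89294869 for p19Arf, chr4:89282193-89282442 for p16Ink4a and chr4:89311040-89311282 for Cdkn2b.
Cdkn2a p19Arf start: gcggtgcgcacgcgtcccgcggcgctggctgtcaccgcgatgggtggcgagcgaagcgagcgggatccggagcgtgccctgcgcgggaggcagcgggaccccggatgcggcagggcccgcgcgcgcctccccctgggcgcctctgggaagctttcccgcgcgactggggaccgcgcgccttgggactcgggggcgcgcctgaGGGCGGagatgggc
Cdkn2a p16Ink4a start: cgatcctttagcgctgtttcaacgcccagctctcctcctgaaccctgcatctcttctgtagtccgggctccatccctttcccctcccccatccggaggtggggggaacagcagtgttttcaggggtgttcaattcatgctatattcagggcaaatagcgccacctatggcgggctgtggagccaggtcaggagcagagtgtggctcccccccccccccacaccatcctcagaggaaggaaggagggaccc
Cdkn2b start: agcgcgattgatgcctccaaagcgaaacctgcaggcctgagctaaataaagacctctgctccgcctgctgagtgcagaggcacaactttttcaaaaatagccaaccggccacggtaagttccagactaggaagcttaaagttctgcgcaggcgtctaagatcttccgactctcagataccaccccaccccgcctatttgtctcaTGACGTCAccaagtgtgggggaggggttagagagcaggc
Of the motifs in the forms searched, the p19Arf window held 1 GC box, a motif in 32.7% of all 32851 RefSeq windows of 250 bases. The Cdkn2b window held 1 cAMP element, which 1.55% of all windows hold. The p16Ink4a window held none of the motifs searched. In CpG content the starts differed: the full 250 bases before the RefSeq start held 40 CpG for p19Arf, 7 for p16Ink4a and 12 for Cdkn2b, with a median of 6 over all windows. As many CpG as in the p19Arf window or fewer were found in 98.9% of windows. These are descriptions of the sequence, and no methylation or binding was measured.

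Cdkn2a and Cdkn2b arose by duplication, so it was asked whether reads could be shared between them. The longest identical run of Cdkn2a-201 (p16Ink4a) and Cdkn2b was 23 bases, within the coding part of exon 2 of each, at 89276855 to 89276877 and 89307184 to 89307206, shown as the closest stretch of the paralogs.
Run shared by Cdkn2a and Cdkn2b: cgggaaggcttcctggacacgct
In the GENCODE transcripts, no run of 31 bases of Cdkn2a, Cdkn2b, Cdkn2c or Cdkn2d occurred in any other gene, in either orientation. Which transcripts the authors quantified is not given in the sources used here.

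Of the 4 INK4 genes, Cdkn2c and Cdkn2d did not pass the size rule. Cdkn2c, encoding p18, stood at 29.6 TPM in fibroblasts against 32.0 in macrophages, a log2 ratio of -0.11. Cdkn2d, encoding p19Ink4d, which is distinct from p19Arf, stood at 31.1 and 50.5 TPM, a log2 ratio of -0.68. Cdkn2c is found at 109660876 to 109667189 on chromosome 4 (minus strand, ENSMUSG00000028551) and Cdkn2d at 21288410 to 21291407 on chromosome 9 (minus strand, ENSMUSG00000096472). The 4 INK4 genes together came to 472 TPM in fibroblasts and 87.0 in macrophages. Cdkn2a and Cdkn2b made up 87.1% of that sum in fibroblasts and 5.10% in macrophages, where Cdkn2c and Cdkn2d made up the rest.

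Cdkn1a, encoding p21, was the highest of the 9 genes in both libraries, at 504 TPM in fibroblasts against 344 in macrophages, a log2 ratio of 0.55 that does not pass the size rule. By level it ranked 307 among all fibroblast genes and 455 among those of the macrophages. Cdkn1b, encoding p27, which is best known for holding resting cells out of the cycle, stood at 22.1 and 17.4 TPM, a log2 ratio of 0.33. In each library Cdkn1a was thus far above Cdkn1b, by 22.9 times in fibroblasts and 19.8 times in macrophages. Cdkn1a is found at 29090976 to 29100727 on chromosome 17 (plus strand, ENSMUSG00000023067) and Cdkn1b at 134920401 to 134925513 on chromosome 6 (plus strand, ENSMUSG00000003031). The remaining gene of this family, the imprinted Cdkn1c encoding p57, was higher in fibroblasts, at 18.4 TPM against 3.19, a log2 ratio of 2.21 close to the 4-fold limit, and with 5 TPM added instead of 1 it falls below that limit.

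**Figure D3:**
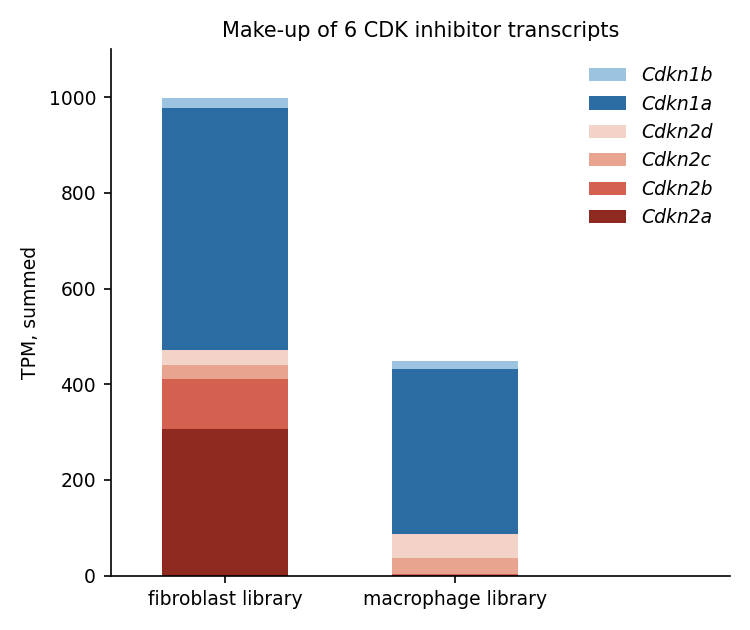
TPM of the 6 inhibitor genes stacked for each library, with INK4 genes in reds at the bottom and CIP/KIP genes in blues on top. The fibroblast bar reaches 998 TPM and the macrophage bar 448 TPM, and the Cdkn2a and Cdkn2b blocks, 411 TPM together in fibroblasts, come to 4.44 TPM in macrophages.

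The 6 inhibitor genes summed to 998 TPM in fibroblasts and 448 in macrophages. Cdkn1a made up 50.5% of the fibroblast sum and 76.7% of the macrophage sum. Cdkn1a was 1.65 times Cdkn2a in fibroblasts and 169 times in macrophages. The kinases these proteins bind were also measured. Cdk4 stood at 881 TPM in fibroblasts against 316 in macrophages, and Cdk6 at 8.87 and 32.7, neither past the size rule. Cdk4 was 2.88 times Cdkn2a in fibroblasts and 155 times in macrophages.

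Trp53, encoding p53, stood at 97.0 TPM in fibroblasts against 69.3 in macrophages, a log2 ratio of 0.48. Mdm2, whose product is both a target and the main inhibitor of p53, stood at 116 and 166 TPM, a log2 ratio of -0.50. Neither passed the size rule, and their ratios had opposite signs. Within a library, Mdm2 was 1.20 times Trp53 in fibroblasts and 2.39 times in macrophages, and Cdkn1a 5.20 and 4.96 times Trp53. Mdm4, the related p53 inhibitor, stood at 24.8 and 16.4 TPM. Trp53 is found at 69580359 to 69591873 on chromosome 11 (plus strand, ENSMUSG00000059552) and Mdm2 at 117688875 to 117710758 on chromosome 10 (minus strand, ENSMUSG00000020184). These are transcript levels, and p53 is controlled largely at the level of its protein, which was not measured.

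Rb1, encoding the retinoblastoma protein, was the lowest of the 9 in fibroblasts, at 12.3 TPM, and stood at 24.1 TPM in macrophages, a log2 ratio of -0.92. This was the largest difference toward macrophages among the 9, and it falls short of the 4-fold rule. Its relatives Rbl1 (p107) and Rbl2 (p130) stood at 12.8 and 13.8 TPM in fibroblasts and 23.3 and 16.7 in macrophages, so that all 3 pocket protein genes had their higher value in macrophages, none past the rule. Rb1 is found at 73183673 to 73325822 on chromosome 14 (minus strand, ENSMUSG00000022105). The genes Rcbtb2 and Lpar6, named after their values were seen, overlap it on the opposite strand. Of the 5949 runs of 31 bases in Rb1 transcripts, 13.2% occur in other genes in either orientation, 430 in Rcbtb2 and 353 in Lpar6. The libraries were made with a stranded kit, but whether strand was used in quantification is not given in the sources used here. Rcbtb2 and Lpar6 stood at 53.5 and 4.61 TPM in fibroblasts and at 80.1 and 10.1 in macrophages, and their part in the Rb1 values was not tested. For Trp53, 10.2% of such runs occur elsewhere, 365 of them in the pseudogene Trp53-ps, listed at 0 in both libraries, and for Cdkn1a 9.78%. For Mdm2 the share was 1.99% and for Cdkn1b 0.0874%.

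The order of the 9 levels differed between the libraries mainly through the shared locus. In fibroblasts it ran from Cdkn1a through Cdkn2a, Mdm2, Cdkn2b, Trp53, Cdkn2d, Cdkn2c and Cdkn1b to Rb1, and in macrophages from Cdkn1a through Mdm2, Trp53, Cdkn2d, Cdkn2c, Rb1 and Cdkn1b to Cdkn2b and Cdkn2a. Cdkn2a and Cdkn2b moved from places 2 and 4 to places 9 and 8. With no replicates, it cannot be said which neighbours in these orders differ.

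**Figure D4:**
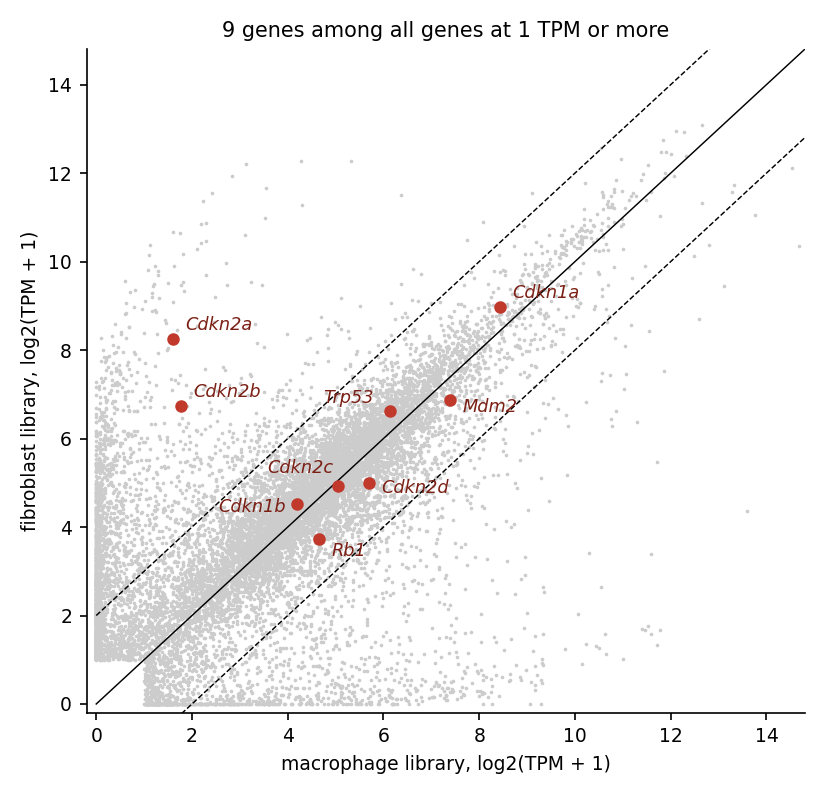
Each dot is a gene at 1 TPM or more in either library, with log2(TPM + 1) in macrophages on the x axis and in fibroblasts on the y axis, a solid line for equal values, dashed lines for 4-fold differences and the 9 genes in red. Cdkn2a and Cdkn2b lie above the upper dashed line and the other 7 between the dashed lines.

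Among 142 genes of 10 lists fixed around the 9, those with the nearest levels in both libraries were sought for the 3 with the largest absolute log2 ratios. The measure was the distance in log2(TPM + 1) over both libraries, which is a description of 2 points. Nearest to Cdkn2a was Igfbp7 at a distance of 0.83, with 545 and 2.02 TPM, and then the death receptor gene Tnfrsf10b at 2.10. Nearest to Cdkn2b were Tnfrsf10b, at 0.57, with 71.1 and 2.51 TPM, and Btg2 at 1.35. Nearest to Rb1 was its relative Rbl1, at 0.07, followed by Bbc3 at 0.24, with 13.3 and 28.1 TPM.

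Upstream of RB1, 1 of the listed cyclin and kinase genes passed the size rule. Of 12 genes for the cyclins and kinases of G1 and S, 1 (8.33%, against 14.3% of all genes) was higher in fibroblasts and none (0%, against 8.77%) in macrophages. Within 2-fold lay 6 of them (50%, against 61.3% of all genes). The median log2 ratio was 0.38 against 0.26 over all genes. The one was Ccnd2, encoding cyclin D2, at 346 TPM against 37.1, a log2 ratio of 3.19. Ccnd1 stood at 245 and 383 TPM and Ccnd3 at 207 and 59.7. Over the 3 D cyclins the sums were 798 and 479 TPM. Downstream, of 12 pocket protein, E2F and DP genes 1 (8.33%, about the 8.77% of all genes) was higher in macrophages and none (0%, against 14.3%) in fibroblasts. It was E2f2, an activating E2F, at 25.5 TPM against 0.751, a log2 ratio of -3.92. The median of this list was 0.21. E2f1, named after its values were seen, stood at 36.5 TPM in fibroblasts against 34.0 in macrophages.

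Genes that mark dividing cells were present in both cultures. Of 22 such genes, none (0%, against 14.3% of all genes) was higher in fibroblasts and none (0%, against 8.77%) in macrophages. Within 2-fold lay 19 of them (86.4%, against 61.3% of all genes). Their median log2 ratio was 0.48, against 0.26 over all genes, with a range of -1.42 to 1.95. Mki67, the gene of the proliferation antigen Ki-67, stood at 28.0 TPM in fibroblasts against 42.5 in macrophages. Pcna, encoding the clamp of the replicating polymerase, stood at 201 and 540 TPM and Cdk1, the kinase of mitosis, at 296 and 155. The 305 TPM of Cdkn2a were measured in a culture in which all 22 division genes stood at 21.3 TPM or more. Whether the same cells held both kinds of transcript was not tested.

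Known p53 target genes other than Cdkn1a and Mdm2 gave calls toward fibroblasts alone. Of 30 listed, 29 reached 5 TPM, of which 8 (27.6%, against 14.3% of all genes) were higher in fibroblasts and none (0%, against 8.77%) in macrophages. Their median log2 ratio was 1.52, against 0.26 over all genes. Of the 29, 21 had a log2 ratio above 0 and 8 below 0. Within 2-fold lay 10 (34.5%, against 61.3% of all genes). Phlda3, which encodes an inhibitor of AKT, stood at 308 TPM in fibroblasts against 21.0 in macrophages, and Tnfrsf10b at 71.1 and 2.51. Btg2, an antiproliferative gene, stood at 60.0 and 6.22 TPM, and Perp, whose product sits in desmosomes, at 44.6 and 0.0519. The other 4 were named after their values were seen: Pmaip1 at 40.3 and 5.84 TPM, Fas at 29.0 and 5.72, Eda2r at 26.6 and listed at 0, and Rprm at 14.7 and listed at 0. Not all targets followed: the apoptosis gene Bax stood at 416 and 391 TPM, and Ccng1, encoding cyclin G1, at 345 and 95.2, a log2 ratio of 1.85, short of the 4-fold limit. Many of these genes have other known activators besides p53. With a 2-fold threshold, 16 of the list were higher in fibroblasts and 3 in macrophages. The 3, picked out here after their values were seen, were Sesn1, Plk3 and Bbc3. Sesn1 stood at 7.82 TPM in fibroblasts against 28.6 in macrophages, Plk3 at 11.0 and 38.4, and Bbc3 at 13.3 and 28.1.

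The p53 decamer pair searched in the promoter windows was 2 adjacent decamers with their fixed C and G bases kept and at most 1 other base off the consensus, a pattern that reads alike on both strands. It occurred in 19 of the 32851 windows (0.0578%). Among the 9 genes, it was found before the more upstream of the Cdkn1a starts, at chr17:29090928-29090947 on the plus strand, 51 bases before the RefSeq start. Of 22 listed p53 targets with a window, 1 held it, Ccng1, at chr11:40755462-40755481 on the minus strand, 195 bases before the start. The 20 bases of both are shown as the p53 motifs found in this set, all in capitals since the whole is the match.
Cdkn1a: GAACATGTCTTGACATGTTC
Ccng1: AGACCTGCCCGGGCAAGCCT
The window before the Mdm2 start held no such pair, and the best known p53 sites of Mdm2 lie in its first intron, outside the windows. Rb1 had no window in the table used.

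None of the listed regulators of p53 passed the size rule. Of 17 listed, 15 reached 5 TPM. Of these, 0% were called in either direction, against 23.1% of all genes, and 14 (93.3%, against 61.3%) lay within 2-fold. Their median log2 ratio was 0.35, against 0.26 over all genes. The highest were Rpl11, a ribosomal protein that can bind MDM2, at 1421 TPM in fibroblasts against 1135 in macrophages, and Npm1, a nucleolar partner of p19Arf, at 1148 and 540. Of 12 genes listed for the control of p27, none (0%, against 23.1% of all genes) passed the rule either, with a median of 0.35. This count depends on the setting: with 0.1 TPM added instead of 1, 1 was higher in fibroblasts, and with a 2-fold threshold 4 were. Foxo1, named after its values were seen, came closest, at 9.07 TPM in fibroblasts against 1.67 in macrophages, a log2 ratio of 1.92. Skp1a, part of the ubiquitin ligase that removes p27, stood at 194 and 94.3 TPM, and Jak1, a kinase of cytokine receptors, at 175 and 75.3.

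Of 21 genes listed as regulators of the Cdkn2a locus, 18 reached 5 TPM, of which 2 (11.1%, against 14.3% of all genes) were higher in fibroblasts and 1 (5.56%, against 8.77%) in macrophages, so that neither share exceeded that of all genes. Their median log2 ratio was 0.52. The Polycomb gene Bmi1, best known as a repressor of Cdkn2a, stood at 48.5 TPM in fibroblasts against 25.5 in macrophages, and did not pass the rule. Kdm6b, which encodes a demethylase of the mark that Polycomb writes, passed the rule toward fibroblasts with 12.8 TPM against 1.63, as did Twist1, a mesenchymal factor known to hold the locus down, with 55.6 against 0.0632. With 5 TPM added instead of 1, Kdm6b falls below the 4-fold limit. Ets2, an activator of p16Ink4a, was higher in macrophages at 92.9 TPM against 15.1.

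Of 12 genes linked to senescence, 11 reached 5 TPM, of which 6 (54.5%, against 14.3% of all genes) were higher in fibroblasts and 1 (9.09%, against 8.77%) in macrophages. With 5 TPM added instead of 1, 5 of the list were higher in fibroblasts. The median log2 ratio of the list was 2.50, against 0.26 over all genes. Within 2-fold lay 4 of the 11 (36.4%, against 61.3% of all genes). Igfbp7 stood at 545 TPM against 2.02, Igfbp3 at 96.0 against 0.124 and the protease gene Mmp3 at 50.1 against 0.0567. These encode secreted proteins that fibroblasts also make outside senescence. Plau, encoding urokinase, was higher in macrophages at 739 TPM against 119.8. Members named after their values were seen included Lmnb1, whose loss marks senescent cells, at 31.3 TPM in fibroblasts against 44.6 in macrophages, and the cytokine gene Il6, at 0.664 and 0.0427 TPM.

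**Figure D5:**
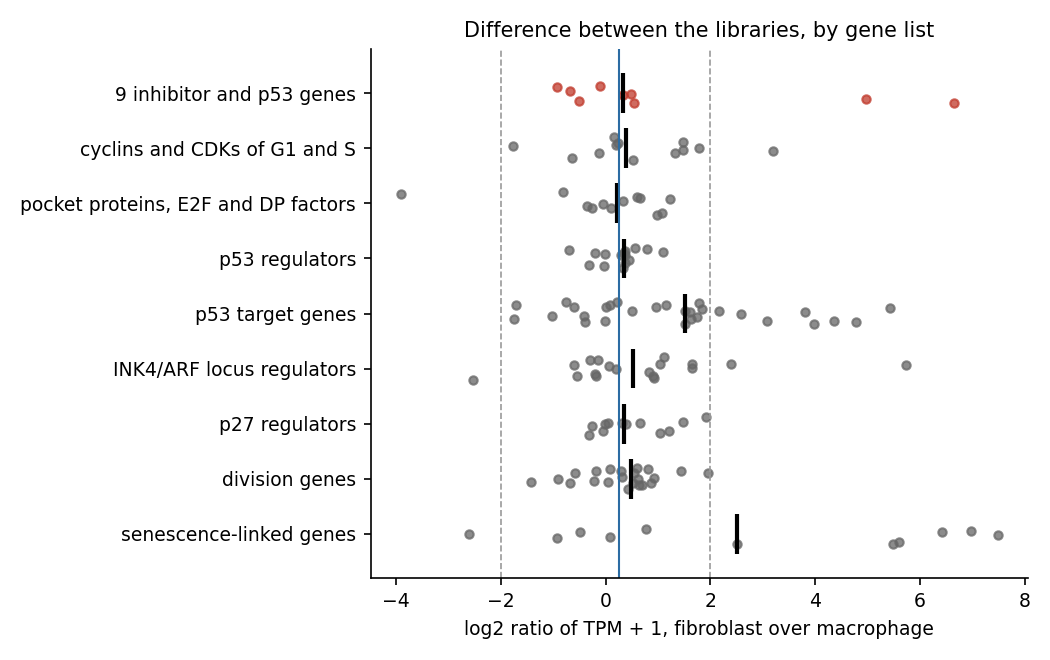
Log2 ratio of TPM plus 1, fibroblast over macrophage, for the genes of 9 lists at 5 TPM or more in either library, 1 point per gene with random vertical scatter, a black bar for the list's median, a blue line for the median of all 11191 genes (0.26) and dashed lines at the 4-fold limits. The p53 targets and the senescence-linked genes have medians of 1.52 and 2.50, and those of the other 7 lists drawn lie between 0.21 and 0.52.

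As to the libraries as a whole, values summed to 999545 and 999609 TPM, 12561 genes reached 1 TPM in fibroblasts and 11429 in macrophages, and TPM keep no read depth. Conversely, all 19 listed markers of macrophages were higher in that library, summing to 35027 TPM against 50.5 and none listed at 0 in either library. The 3 genes of the sort, Ptprc, Itgam and Adgre1, came to 1.29 TPM in the fibroblast library. Of 8 genes listed for neutrophils, 5 reached 5 TPM, and all 5 (100%, against 8.77% of all genes) were higher among the macrophages. The 8 summed to 496 TPM there against 1.93, with Ly6g listed at 0 in both. Of 6 neural markers 3 reached 5 TPM, of which 2 (66.7%, against 14.3% of all genes) were higher in the fibroblast library. Of 6 muscle markers 1 reached 5 TPM, and it was higher in fibroblasts. No epithelial, erythroid, lymphocyte or dendritic cell marker reached 5 TPM, so the size rule could not call them. Of 6 endothelial markers 1 reached 5 TPM, and it did not pass the rule. The part of neutrophil transcripts in the E2f2 value was not tested.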

How the data were processed

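Poly(A) RNA of 2 cultures was sequenced in paired reads of 76 bp with a stranded kit, per the labels' protocols. The authors deposited 1 table with 1 column per library. The tool kallisto 0.43.1 and the build GRCm38 are named in the submitters' processing notes. The header names no unit, and the deposited values were read as TPM, since they are fractional, never below 0, and total close to 1000000 in each column. TPM keep no depth, so no counting interval can be given.

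Rows with the same symbol were added, from 34456 rows to 34295 genes, with date-like names kept apart by their descriptions. Python 3.11.15 and pandas 2.3.3 were used. No test is possible on 1 library per group. The size rule asks for a log2 ratio of TPM plus 1 of at least 2 (4-fold) and 5 TPM in the higher library. The added 1 pulls the ratios of low genes toward 0.

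The members and lists were chosen with earlier results of these data known. Named from each list were up to 4 genes per direction past the rule with the highest value, otherwise up to 2 with the highest value, all genes of lists of up to 4, and 12 genes always: Mdm4, Bax, Ccng1, Ccnd1, Ccnd2, Ccnd3, Cdk4, Cdk6, Bmi1, Rbl1, Rbl2 and Mki67. One gene that this rule names is not reported here. Alternatives were other pseudocounts, minimums, a 2-fold threshold, other scalings, single rows, protein-coding genes alone and subtraction of the marker share of the other cell type. Coordinates come from GENCODE M21 and promoter windows from RefSeq, which held 8 of the 9 genes.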

Additional observations from a re-analysis of the deposited data

How the results depend on the processing

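Of 11 alternatives, 5 (the minimums, the 2-fold threshold and single rows) leave the log2 ratios of the 9 genes as they are by construction, and the 2 pseudocounts cannot turn a sign. Under the other 4, the scalings and the marker subtraction, all 9 ratios kept their sign, and none of the 9 changed its side of the size rule under any of the 11. Cdkn2a ranged from 5.46 to 7.16 and Cdkn2b from 3.90 to 5.40. Rb1, the largest difference toward macrophages, ranged from -1.09 to -0.76. With a 2-fold threshold, 44 in place of 18 of the pathway genes were higher in fibroblasts and 8 in place of 3 in macrophages, since a lower threshold admits more genes. In the other alternatives these counts ran from 13 to 19 in fibroblasts and stayed at 3 in macrophages. Over all genes that reached 5 TPM in both cultures, the median log2 ratio without the added 1 was 0.18, which median-of-ratios scaling brought to 0.013. Relative to that shift, the ratios of Cdkn1a, Cdkn1b and Trp53 became 0.37, 0.15 and 0.30. No paired analysis was possible because each cell type has 1 library. TPM give no depth, so the precision of the low macrophage values of Cdkn2a and Cdkn2b is unknown.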
